A study of Mus musculus with 6 samples.

Results

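Deaminases that edit RNA or DNA were followed through the sciatic nerves of mice at post-natal day 4 (P4). The rule kept every row of the deposited gene table whose symbol was *Adar*, *Adarb1*, *Adarb2*, *Adat1*, *Adat2*, *Adat3*, *Apobec1* or *Apobec3*, and found all 8 among 59485 rows. The 3 control animals were labelled wild-type, a term that the study's methods use for Adar1fl/fl;R26R or Adar1fl/+;R26R animals without Cre, which carry floxed *Adar* alleles and the YFP reporter R26R as the mutants do. The alleles of each control animal are not given in the sources used here. The 3 animals labelled mutant were Ht-PA-Cre; Adar1fl/fl;R26R, in which Cre under the human tissue plasminogen activator promoter recombines the floxed alleles in neural crest cells. Schwann cells descend from the neural crest, whereas blood, endothelial and immune cells of the nerve do not and keep an intact *Adar*. Each animal gave 1 library of polyadenylated RNA from whole nerve.

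Adenosine deaminases acting on RNA (ADARs) turn adenosine into inosine in double-stranded RNA, which cells read as guanosine. ADAR1, the product of *Adar*, keeps endogenous double-stranded RNA from being sensed as viral by MDA5, and its longer isoform is made from a promoter that interferon induces. The ADATs deaminate adenosine in transfer RNAs, and the APOBECs deaminate cytidine, APOBEC1 in messenger RNA and APOBEC3 in viral DNA.

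Values are normalised read counts, the reads of a gene divided by the size factor of its library. Reads on genes ran from 50938349 to 78250094 per library, and 1 read was worth 0.727 to 1.27. Pearson correlations across genes lay between 0.941 and 0.951 within genotypes and between 0.855 and 0.884 across them, and genes are not independent replicates. The limma test on log2(value + 1) covered 25802 genes, those whose mean reached 10 in at least 1 of the genotypes. The threshold, taken from the study's methods, asks for a change of 2-fold or more together with an unadjusted p of 0.05 or less. Benjamini-Hochberg adjustment ran over all 25802 genes, ± marks the SD of 3 libraries, and ranges after log2 fold changes are 95% confidence intervals. Of the 8 Schwann cell markers examined, 5 fell past the threshold, and their summed value went from between 1131680 and 1499310 in controls to between 52410 and 207418 in mutant-labelled libraries. Fewer cells of a type and less RNA per cell cannot be told apart in such bulk samples. By electron microscopy at P4, the study reported similar Schwann cell numbers in control and mutant nerves.

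Of the 8 deaminase genes, 3 passed the threshold and were higher in the libraries labelled mutant (*Adar*, *Apobec1* and *Apobec3*), where 13.9% of all tested genes did so. *Adarb2* was lower past the threshold, as were 10.4% of tested genes, and the other 4 did not pass. So 4 of 8 passed in either direction, against 24.2% of all tested genes. The same 4 kept a p of 0.05 or less after adjustment, a call that 35.0% of tested genes received without a fold limit and 19.9% with the 2-fold limit. Control and mutant-labelled values did not overlap for these 4, with 3 genes above (25.9% of all tested genes) and 1 below (23.3%; 49.2% in either direction). The median log2 fold change was 0.31 over the 8 genes and 0.03 over all tested genes. The exact two-sided permutation test gave its smallest possible p for 3 animals against 3, 0.1, for each of these 4 genes.

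**Figure D1:**
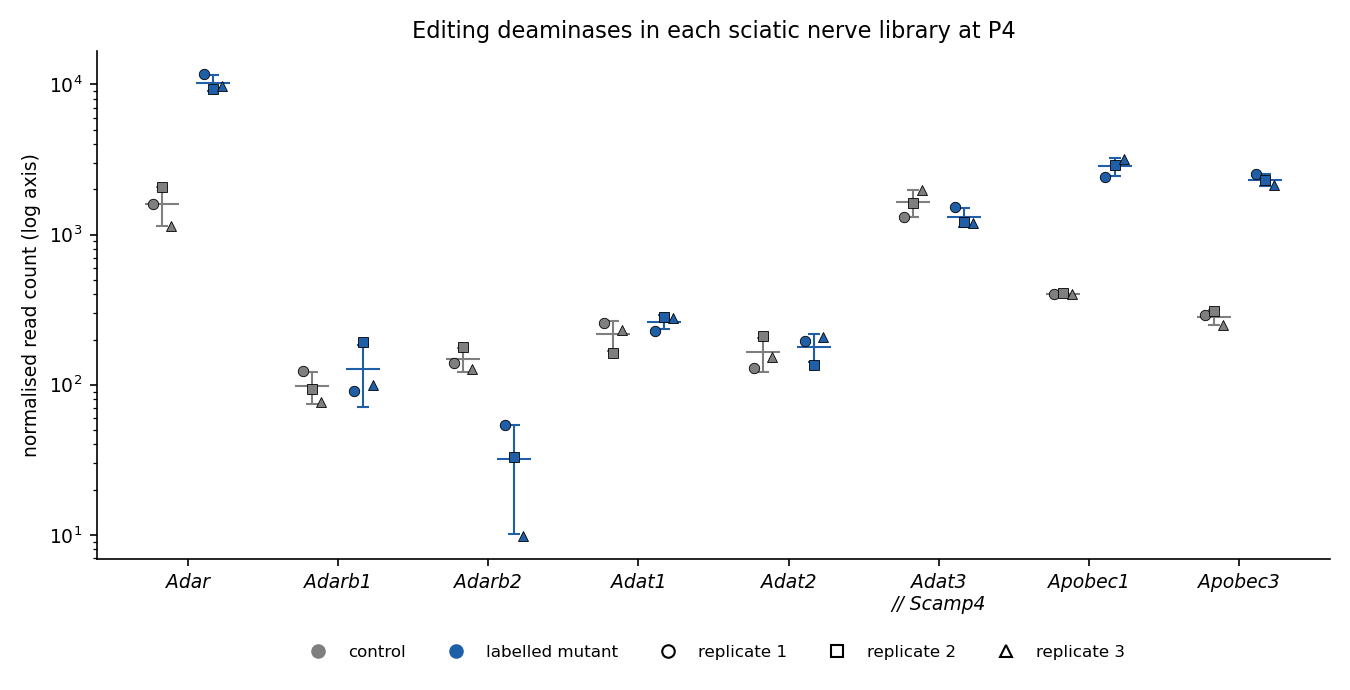
Normalised read count (log axis) of each deaminase gene in every library, with control libraries in grey and libraries labelled mutant in blue; horizontal bars are means, vertical bars SDs of 3 libraries, and marker shapes replicate numbers. *Adar*, *Apobec1* and *Apobec3* were above every control, *Adarb2* was below every control, and the genotypes overlapped for the other 4 rows.

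The values of the targeted gene were set beside the labels. *Adar* (GSMG0024553, chr3:89715022-89753454, plus strand) had values of 1602, 2066 and 1133 in control replicates 1, 2 and 3, and 11768, 9311 and 9773 in the libraries labelled mutant. All 3 libraries labelled mutant lay above all controls, so the gene that the labels name as deleted had more reads, not fewer. The mean was 1601 ± 467 in controls and 10284 ± 1306 in libraries labelled mutant (log2 fold change 2.72, 2.25 to 3.19, standard error 0.20, adjusted p = 4.1e-05 in limma). The ratio of means was 6.43. The table holds 1 value per gene, counted over its constitutive regions, so neither the isoforms nor the floxed segment can be read from it, and the value does not show whether the alleles were recombined.

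RefSeq places start sites of *Adar* at 89715022, 89715238 and 89730718 on chromosome 3, and in GENCODE M21 1 protein-coding transcript starts at 89715022 and 4 start at 89730748. The bases before the first and the last (internal) of these are shown because only the window of the internal start held a match to the motifs given next. They come from RefSeq on GRCm38.p6 and read 5′ to 3′ on the gene's strand, with motif matches in capitals.
Adar, upstream start (chr3:89714772-89715021, plus strand): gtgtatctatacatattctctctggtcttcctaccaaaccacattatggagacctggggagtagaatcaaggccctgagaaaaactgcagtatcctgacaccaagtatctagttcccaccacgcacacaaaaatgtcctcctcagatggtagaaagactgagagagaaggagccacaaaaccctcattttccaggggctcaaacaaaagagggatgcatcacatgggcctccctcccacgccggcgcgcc
Adar, internal start (chr3:89730468-89730717, plus strand): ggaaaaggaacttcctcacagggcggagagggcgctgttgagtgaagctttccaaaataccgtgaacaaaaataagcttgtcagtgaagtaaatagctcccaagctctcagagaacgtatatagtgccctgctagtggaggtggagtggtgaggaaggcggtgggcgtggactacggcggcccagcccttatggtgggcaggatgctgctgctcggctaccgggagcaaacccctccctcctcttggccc
Adar, around the match past the internal start (chr3:89730734-89730763, plus strand): agccttTTCAAGGAAACGAAAgtgaactct

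3 motifs were searched on both strands of the 300-base windows that run from 250 bases before to 50 after each RefSeq start. They were chosen after the members' windows had been read: GAAANNGAAA, the full interferon-stimulated response element; GAANNGAAA, a form of it with other spacing; and TTCNNNGAA, the gamma-activated sequence. The internal *Adar* window held GAAACGAAA (89730746 to 89730754) and TTCAAGGAA (89730740 to 89730748), which overlap, and both first bases lie after the RefSeq start, by 28 and 22 bases. Of the 5 protein-coding GENCODE transcripts, 4 start at 89730748, so both matches span that start: TTCAAGGAA ends on its first base, and GAAACGAAA begins upstream of it and ends in the 5′ UTR exon. Both lie in an intron of the other 1. The shares of all 32851 windows with a match were 3.44% for GAAANNGAAA, 7.52% for GAANNGAAA and 8.3% for TTCNNNGAA. A match describes the letters and is not a site of binding.

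*Apobec1* (GSMG0033642, chr6:122577792-122602444, minus strand), which encodes the cytidine deaminase of *Apob* messenger RNA, had values of 401, 408 and 404 in controls and 2422, 2923 and 3186 in libraries labelled mutant. The controls were almost alike, and the lowest mutant-labelled value was far above them. The mean went from 404 ± 3.67 to 2844 ± 388, with a ratio of 7.03 and a log2 fold change of 2.80 (2.49 to 3.11, standard error 0.13, adjusted p = 5.3e-06 in limma).

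*Apobec3* (GSMG0013386, chr15:79892408-79915906, plus strand), a single gene in the mouse whose product restricts retroviruses, had values of 293, 312 and 248 in controls and 2538, 2311 and 2129 in libraries labelled mutant. The groups were again far apart. Its mean went from 284 ± 32.6 to 2326 ± 205, with a ratio of 8.18 and a log2 fold change of 3.03 (2.70 to 3.36, standard error 0.14, adjusted p = 5.28e-06 in limma). This was the largest change among the 8 genes, although its interval overlapped those of *Adar* and *Apobec1*.

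The windows of both genes are shown because *Apobec3* held motif matches and *Apobec1*, with a change of similar size, held none of the motifs. RefSeq lists a second *Apobec3* start, at 79895023, whose window held no match either.
Apobec1 (chr6:122602445-122602694, minus strand): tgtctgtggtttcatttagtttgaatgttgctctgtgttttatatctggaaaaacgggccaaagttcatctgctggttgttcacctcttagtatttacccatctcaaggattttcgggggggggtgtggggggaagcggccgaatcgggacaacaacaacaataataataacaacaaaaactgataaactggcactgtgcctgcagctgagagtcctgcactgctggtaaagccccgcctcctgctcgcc
Apobec3 (chr15:79892158-79892407, plus strand): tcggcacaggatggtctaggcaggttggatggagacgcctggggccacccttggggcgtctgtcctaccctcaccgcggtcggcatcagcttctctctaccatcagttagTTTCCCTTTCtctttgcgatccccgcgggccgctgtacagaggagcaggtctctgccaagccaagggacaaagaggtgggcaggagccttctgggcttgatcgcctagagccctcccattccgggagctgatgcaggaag
Apobec3, around the match past the start (chr15:79892428-79892457, plus strand): ttggcccgggaggtcagTTTCACTTCtggg

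The *Apobec3* window held GAAANNGAAA on the opposite strand, with its first base 140 bases before the start, and GAANNGAAA on the opposite strand, 37 bases after it. Windows were found for 7 of the 8 members, 10 in all, and those of *Adarb1*, *Adarb2*, *Adat2* and *Adat3* held none of the motifs. No window of *Adat1* was used here. Among tested genes with a window, 3.82% of 12755 held GAAANNGAAA, and 8.52% of the 2043 that were higher past the threshold did. For GAANNGAAA the shares were 7.57% and 10.3%, and for TTCNNNGAA 8.43% and 11%.

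Interferon-stimulated genes moved with these rises. The 6 genes of the study's RT-qPCR signature (*Cxcl10*, *Isg15*, *Ifit1*, *Ifit2*, *Rsad2* and *Mx1*) all passed the threshold upwards (median log2 fold change 7.09), and since the study used this list on the same mutants it is no independent evidence of a direction. Their summed value was 4412, 8562 and 4316 in controls and 314813, 234846 and 313766 in libraries labelled mutant. Control replicate 2 had the highest signature of the controls and the highest value of *Adar*. For *Apobec1* and *Apobec3* it was only just above the next control (408 against 404, and 312 against 293), too little to rank them. Among the libraries labelled mutant, the signature and *Adar* were lowest in replicate 2, but *Apobec1* was lowest in replicate 1 and *Apobec3* in replicate 3. *Mx1*, *Ifit1*, *Rsad2* and *Cxcl10* changed most, with log2 fold changes of 8.55, 7.88, 7.54 and 6.64.

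Immune cells express APOBEC enzymes, so their markers stand beside these values. Of 10 lymphocyte markers 9 were tested and 4 were higher past the threshold, namely *Gzma*, *Ncr1*, *Nkg7* and *Cd8a*, and their list summed to between 41.8 and 105 in controls and between 330 and 701 in mutant-labelled libraries. *Cd3d*, *Cd8a* and *Ncr1* were at 0 in all 3 controls. Of 10 macrophage markers, *Ptprc* and *Aif1* were higher past the threshold and *Mrc1*, *Cx3cr1* and *Csf1r* lower. The summed macrophage level was similar, between 21091 and 26704 in controls and between 21708 and 25106 in mutant-labelled libraries. The part of these cells in the rises of *Apobec1*, *Apobec3* and *Adar* was not tested.

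**Figure D2:**
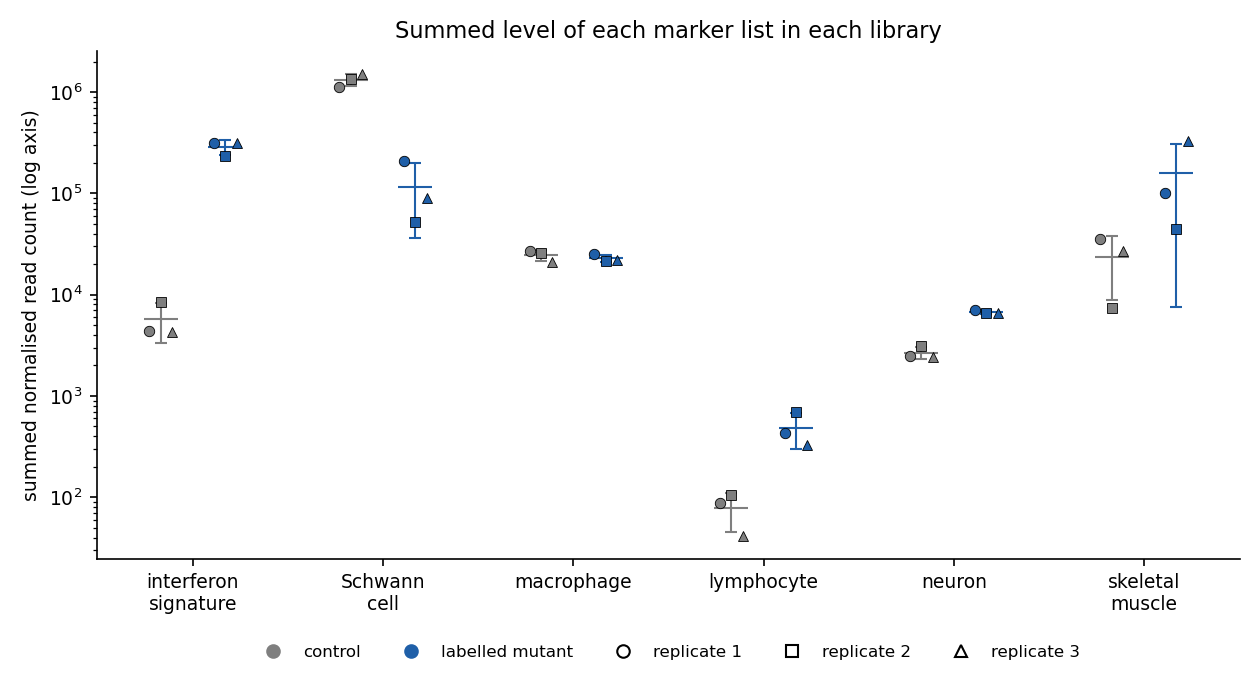
Summed normalised read count (log axis) of the interferon signature and of 5 lists of cell type markers in every library, with means and SDs of 3 libraries; controls are grey and libraries labelled mutant blue. The interferon signature, lymphocyte, neuron and skeletal muscle sums were higher in each library labelled mutant than in any control, Schwann cell sums were lower, and macrophage sums overlapped.

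*Adarb2* (GSMG0009403, chr13:8202864-8768762, plus strand) was the 1 member that fell past the threshold. It encodes ADAR3, a brain-enriched protein of the family that binds RNA without known editing activity. Its values were 139, 179 and 128 in controls and 53.8, 32.8 and 9.89 in libraries labelled mutant, the latter from 74, 34 and 10 reads. Every mutant-labelled value was below every control, and these 3 values spread from 9.89 to 53.8. Means were 148 ± 26.6 and 32.2 ± 22.0 (log2 fold change -2.44, -3.79 to -1.10, standard error 0.59, adjusted p = 0.0129 in limma). Without mutant replicate 3, the lowest, the log2 fold change was -1.78 and still passed the threshold.

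Neuron markers did not fall with *Adarb2*. Of the 8 examined, 5 were higher past the threshold (*Rbfox3*, *Syt1*, *Tubb3*, *Elavl4* and *Nefm*), and their list summed to between 2414 and 3095 in controls and between 6599 and 7089 in mutant-labelled libraries. Schwann cell markers fell as given above, with log2 fold changes of -3.64 for *Gfra3* and -3.07 for *S100b*. The 3 that did not pass were *Sox10* at -0.71, *Foxd3* at -0.38 and *Cdh19* at 0.13, named after their values were seen. The summed list was lowest in mutant replicate 2, whereas *Adarb2* was lowest in mutant replicate 3. The part of cell composition in the fall of *Adarb2* was not tested.

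Inside *Adarb2*, 6 genes without a symbol lie on its strand, so reads between them may be shared. One of them, GSMG0009407 (chr13:8517637-8520552), singled out after its values were seen, contains no base of an *Adarb2* exon in GENCODE M21. It had values of 53.3, 56.7 and 48.2 in controls and no reads in the 3 libraries labelled mutant. Against a floor of 3 reads per library, it was at least 19.7-fold lower, and this floor covers counting error only.

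The other active editor of the family did not pass the threshold. *Adarb1* (GSMG0004284, chr10:77290393-77418273, minus strand) encodes ADAR2, which edits glutamate receptor transcripts in neurons, and had values of 123, 93.5 and 77.3 in controls and 90.2, 194 and 99.9 in libraries labelled mutant. The genotypes overlapped, and mutant replicate 2 alone lay above all controls. Means were 98.0 ± 23.3 and 128 ± 57.3, with a log2 fold change of 0.32 (-0.54 to 1.18, adjusted p = 0.544 in limma), an interval that reaches past a 2-fold rise.

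The tRNA deaminases did not pass either. *Adat1* (GSMG0038940, chr8:111966898-111992304, minus strand), which deaminates the adenosine beside the anticodon of alanine tRNA, had values of 259, 163 and 231 in controls and 229, 284 and 277 in libraries labelled mutant, overlapping between genotypes (log2 fold change 0.30, -0.26 to 0.85, adjusted p = 0.375 in limma). *Adat2* (GSMG0002725, chr10:13552893-13563376, plus strand), the catalytic subunit of the enzyme that makes inosine at the wobble position, had values of 130, 211 and 152 against 194, 136 and 209, also overlapping (0.13, -0.52 to 0.79, adjusted p = 0.748 in limma).

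*Adat3*, the partner subunit of *Adat2*, shares 1 row with *Scamp4* (GSMG0003271, chr10:80602879-80615783, plus strand), so its values belong to both genes. They were 1303, 1635 and 1977 in controls and 1533, 1204 and 1203 in libraries labelled mutant, and overlapped. The log2 fold change was -0.31 (-0.71 to 0.09, adjusted p = 0.209 in limma). The intervals of all 3 tRNA deaminase rows lay within a 2-fold change in either direction.

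**Figure D3:**
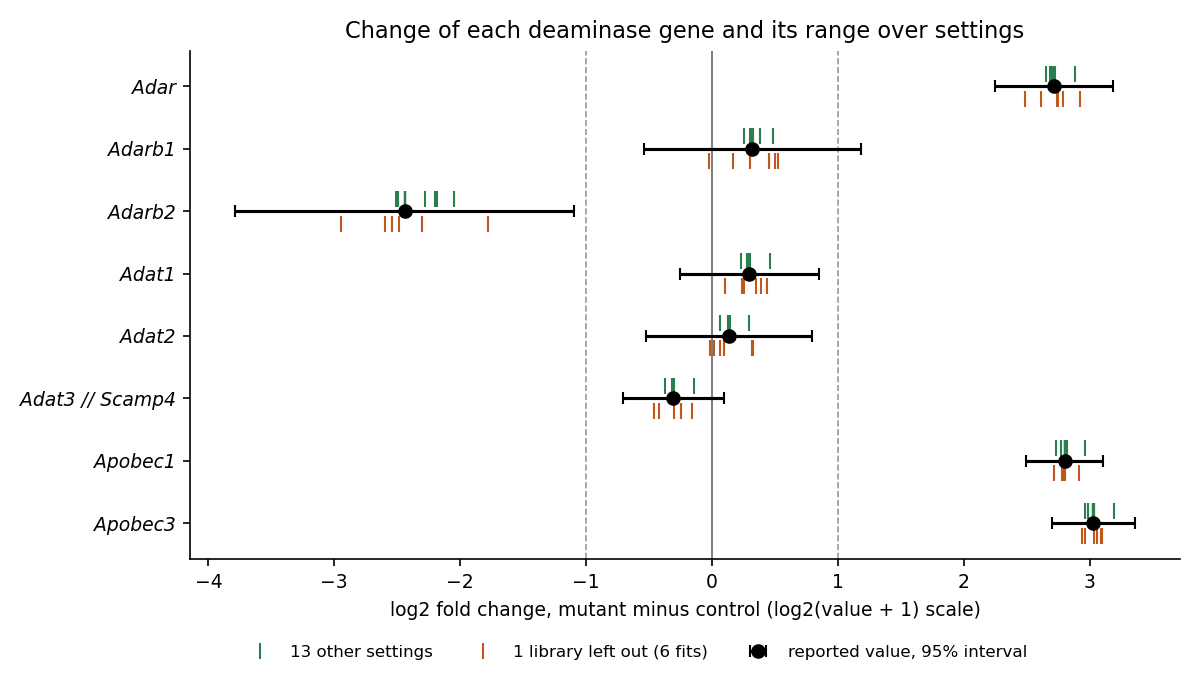
Log2 fold change of each deaminase gene, mutant minus control on the log2(value + 1) scale: black points and bars are reported values with 95% confidence intervals, green ticks 13 other settings and orange ticks the 6 fits that each left out 1 library. Dashed lines mark 2-fold changes; *Adar*, *Apobec1* and *Apobec3* ran from 2.49 upwards and *Adarb2* from -1.78 downwards in every fit, and the values of the 4 other rows stayed within the dashed lines in every fit, while the interval of *Adarb1* reached past a 2-fold rise.

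Levels of different genes were compared per kb of the longest protein-coding GENCODE M21 transcript, leaving out the shared *Adat3* row. The authors' constitutive regions may differ from these lengths, and the order of genes depends on the length used. Bases shared by all protein-coding transcripts are far fewer in *Apobec1* than in *Adar*, and *Apobec3* has none. Per shared base, *Apobec1* would stand above *Adar* in both genotypes. On the longest transcript, *Adar* stood highest in controls at 271 ± 79.0 normalised reads per kb, followed by *Apobec1* at 179 ± 1.62. Next came *Adat2* at 112 ± 28.5, *Apobec3* at 103 ± 11.8 and *Adat1* at 68.8 ± 15.7. *Adarb2* and *Adarb1* were lowest, at 22.1 ± 3.96 and 14.7 ± 3.50. Among these neighbours, *Adat2* and *Apobec3* overlapped between libraries, and the others did not.

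In libraries labelled mutant, *Adar* was at 1740 ± 221, *Apobec1* at 1255 ± 171 and *Apobec3* at 841 ± 74.0 normalised reads per kb, without overlap. *Adat2* (123 ± 26.2) and *Adat1* (83.3 ± 9.41) came next, and were likewise apart. *Adarb1* at 19.2 ± 8.60 then stood above *Adarb2* at 4.79 ± 3.27, the reverse of their order in controls. Per kb of all exonic bases, *Apobec3*, which has 20 annotated transcripts, came out lower, at 30.1 ± 3.45 in controls and 246 ± 21.6 in mutant-labelled libraries, under *Adat1* (49.4 ± 11.2) in controls but above it (59.8 ± 6.76) in mutant-labelled libraries. On that scale *Adarb2* and *Adarb1* overlapped in controls, and *Adar* and *Apobec1* overlapped in both genotypes, while the means of both pairs kept their order.

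**Figure D4:**
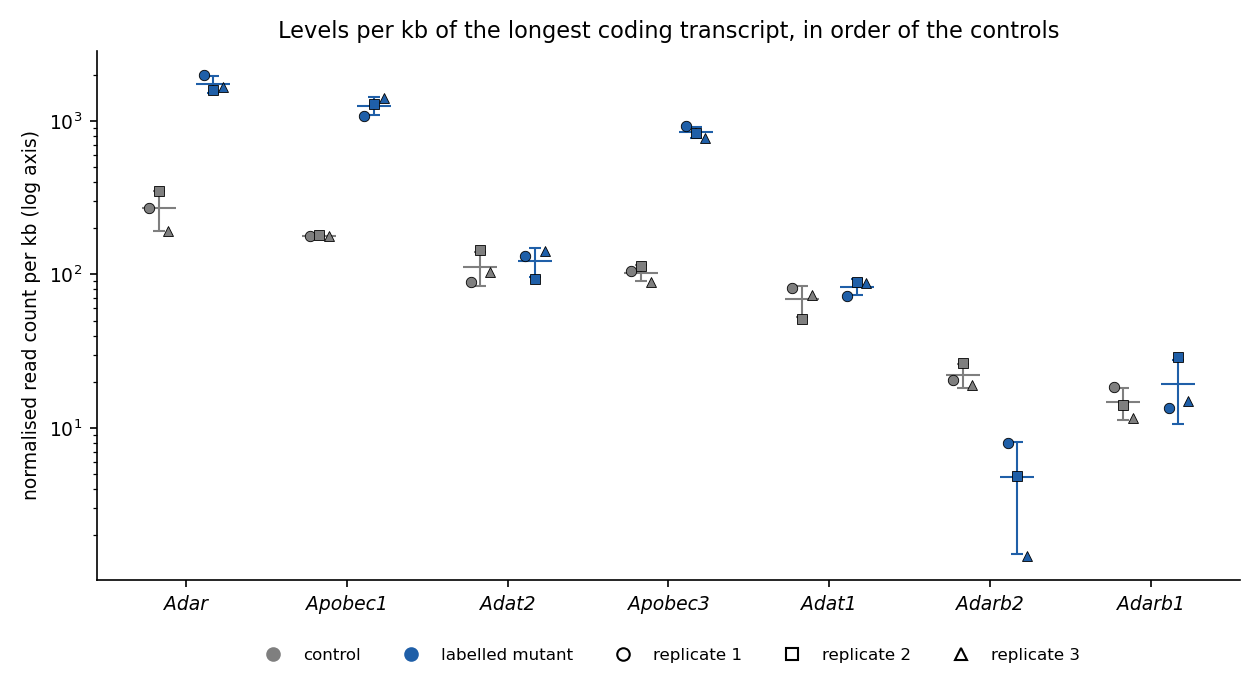
Normalised read count per kb of the longest protein-coding transcript (log axis) in every library for 7 deaminase genes, ordered by their control means, with means and SDs of 3 libraries; controls are grey and libraries labelled mutant blue. On this scale *Adar* had the highest mean in both genotypes, and *Adarb2* and *Adarb1* were lowest and changed places.

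Other deaminases of nucleosides, nucleotides and nucleic acids were listed beside the members. Of 14 genes, 11 were tested, and the others, *Apobec4* and *Adad2* among them, were below the minimum mean. *Ampd1*, *Gda* and *Apobec2* were higher past the threshold and no gene was lower (median log2 fold change 0.35), against 13.9% higher and 10.4% lower among all tested genes. *Gda*, the guanine deaminase, had values of 117, 143 and 46.9 in controls and 407, 684 and 551 in libraries labelled mutant (log2 fold change 2.53, standard error 0.41, adjusted p = 0.00209 in limma). These did not overlap.

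*Ampd1*, the AMP deaminase of skeletal muscle, had values of 178, 22.7 and 143 in controls and 398, 262 and 1518 in libraries labelled mutant, without overlap (log2 fold change 2.68, standard error 0.85, adjusted p = 0.0395 in limma). *Apobec2*, an APOBEC relative of muscle that is named here after its values were seen, had values of 424, 71.8 and 310 against 666, 382 and 2775, which overlapped (2.07, adjusted p = 0.0813 in limma). The summed skeletal muscle markers put the 6 libraries in the same order as *Ampd1*, and in that of *Apobec2* but for a swap of control replicate 1 and mutant replicate 2. Of these markers, 7 of 10 were higher past the threshold, and they summed to 35475, 7383 and 27279 in controls and 100976, 44214 and 328335 in mutant-labelled libraries. Without mutant replicate 3, the highest in muscle markers, neither *Ampd1* (1.93, unadjusted p = 0.06 in limma) nor *Apobec2* (1.25, unadjusted p = 0.135 in limma) passed, and 1 gene of the list did. *Apobec2* also did not pass without control replicate 2 (1.29) or mutant replicate 1 (2.28), or without the trend in eBayes (unadjusted p = 0.0928 in limma), where 2 genes of the list passed. It passed at 2.68 without mutant replicate 2, and *Ampd1* passed at 1.76 without control replicate 2, the lowest in muscle markers. The part of muscle in these values was not tested.

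Partners of the editing enzymes moved little. Of 22 genes for regulators of A-to-I editing and double-stranded RNA binding proteins, all tested, 0 passed the threshold in limma, and 0 also in edgeR and in DESeq2. In limma 9 had an unadjusted p at or under 0.05 (45.0% of all tested genes) and 8 an adjusted one, 6 of these higher and 2 lower, where 35.0% of all tested genes had such an adjusted p. The list's median log2 fold change was 0.05, and its values ran from -0.40 for *Stau2* to 0.57 for *Aimp2*, both named as the ends of the range. In 7 genes the mutant-labelled libraries lay above all controls, and in 4 below, where 25.9% and 23.3% of all tested genes did so.

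The 5 genes for readers and a nuclease of inosine-containing RNA ran from -0.25 (*Nono*) to 0.29 (*Matr3*), and 0 passed the threshold in limma, edgeR or DESeq2, while those 2 genes had an unadjusted p at or under 0.05 in limma, as had 45.0% of all tested genes. Of 7 cofactors and interacting RNA-binding proteins of APOBEC1, 6 were tested and 0 passed in any of these tools. *Khsrp* alone had an unadjusted p at or under 0.05 (-0.42), and the median was -0.07. *A1cf*, the cofactor with which APOBEC1 edits *Apob* in the intestine, had no reads in 5 libraries and 4 reads in the other. *Rbm47*, another cofactor, ran from 132 to 169 in controls and from 108 to 249 in libraries labelled mutant.

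**Figure D5:**
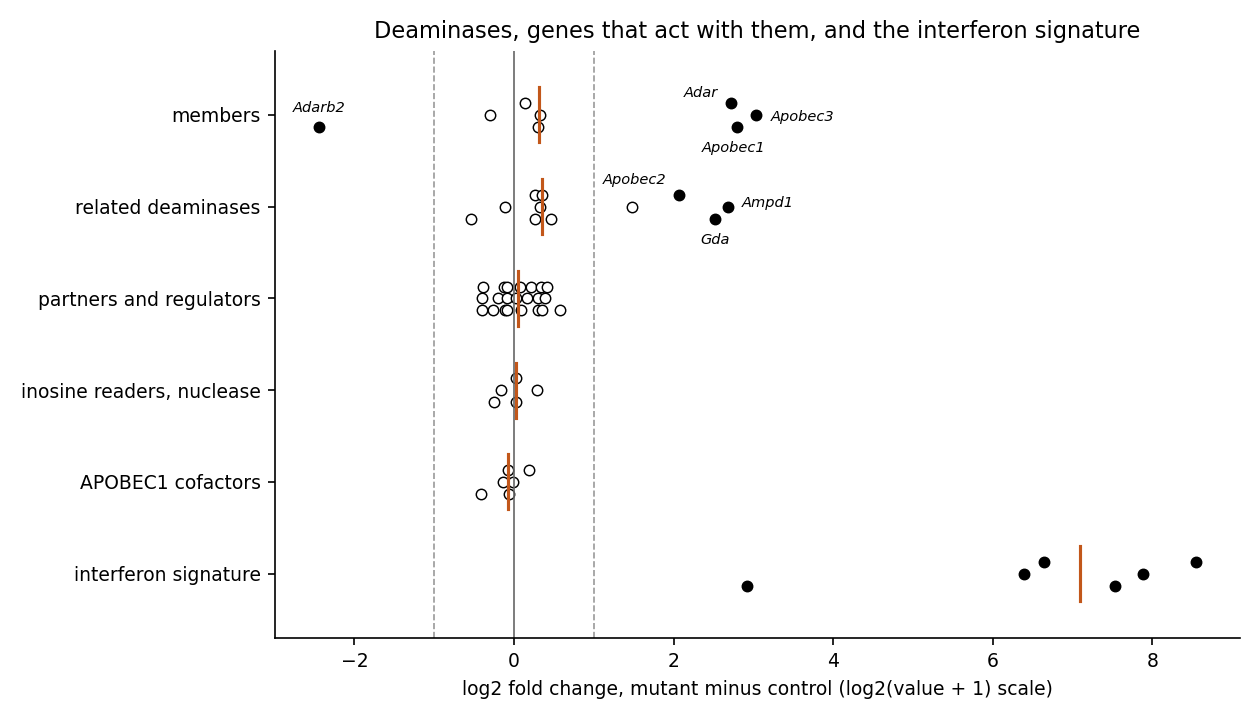
Log2 fold change (mutant minus control) of each tested gene of the deaminases, 4 lists of related or interacting genes and the interferon signature; filled points passed the threshold, orange lines are list medians and dashed lines 2-fold changes. The lists of partners, inosine readers and APOBEC1 cofactors lay between the dashed lines, and the interferon signature lay between 2.92 and 8.55.

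The genes whose pattern over the 6 libraries was most like that of a member are given as a description. Many genes resembled the members that rose: 1660 genes with a symbol had a Pearson correlation above 0.95 with *Adar*, 1794 with *Apobec1* and 1868 with *Apobec3*, all of which share the contrast between genotypes. The nearest were *Gpr4*, *Apol10b* and *Cox18* for *Adar*, *Usp17ld*, *Gm14005* and *Cdx1* for *Apobec1*, and *Gcnt2*, *Gcnt4* and *Zfp36* for *Apobec3*. For *Adarb2* 319 genes were above 0.95, with *Ralgds*, *Col8a2* and *Icam5* nearest. A correlation does not weigh the size of a change: *Gpr4* (log2 fold change 0.43) and *Ralgds* (-0.42) did not pass the threshold. The other members had few such genes, 20 for *Adarb1* (nearest *Sdc1*, *Cldn5* and *Podn*), 33 for *Adat1* (*C1rl*, *Car3* and *Ptgs1*), 8 for *Adat2* (*Lbx2*, *Zxdb* and *Ppcdc*) and 43 for the shared *Adat3* row (*Chmp6*, *U2af2* and *Tada2b*).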

How the data were processed

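Oriented libraries of polyadenylated RNA from sciatic nerves of 6 animals were sequenced by the authors, mapped to mm10 with STAR 2.4.0 and counted on constitutive regions of FAST DB genes. The deposited values are a signal per gene and library, read counts that the authors divided by DESeq2 size factors. Dividing by the value of 1 read gave whole numbers (tolerance 0.01 reads) for 100% of values, and these reads served edgeR and DESeq2 as alternatives. Whether the counting used strand is not given in the sources used here.

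Groups come from the genotype labels, and each library is 1 animal. log2(value + 1) was fitted with limma (lmFit, eBayes with trend), which understates the change of low genes, and the methods' comparison with intergenic reads was not applied. Members and gene lists were chosen with earlier results of these data known. Named beside the members are, per list, up to 4 rises and 4 falls past the threshold with separated values, and 3 genes of the most similar pattern. The tests were checked on simulated data. The values of some single genes of the lists are not reported here. Erythroid, melanocyte, fibroblast, perineurial, pericyte, adipocyte, endothelial, neutrophil and mast cell markers were also computed: 0, 1, 0, 1, 1, 0, 1 and 0 genes were higher and 5, 2, 2, 1, 0, 0, 0 and 1 lower past the threshold, in that order, with neutrophil and mast cells as 1 list. R 4.3.3, limma 3.58.1, edgeR 4.0.16, DESeq2 1.42.0 and Python were used, with RefSeq and GENCODE M21 annotation.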

Additional observations from a re-analysis of the deposited data

How the results depend on the processing

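The counts of 3 members higher and 1 lower held under all 13 other settings, and also when any 1 of the 6 libraries was dropped. Of 152 single-member values under these alternatives, 150 kept their direction and their side of the threshold. The others changed sign without passing: *Adat2* ran from -0.019 without control replicate 1 to 0.33 without control replicate 2, and *Adarb1* from -0.020 without mutant replicate 2 to 0.53 without mutant replicate 1. With 1 library dropped, *Adar* ran from 2.49 to 2.92, *Apobec1* from 2.71 to 2.91, *Apobec3* from 2.94 to 3.10 and *Adarb2* from -2.95 to -1.78, and the largest move was without mutant replicate 3. Over the whole table, the count of 6251 ran from 5743 to 6334 with a library left out, was 4706 with a minimum mean of 50, and 9040 with an adjusted p and no fold limit, under which the partner list had 6 genes higher and 2 lower. Rescaling to the same total moved the median of all genes from 0.03 to 0.19, and *Adar* to 2.88. Replicate numbers name different animals, and same-numbered libraries did not deviate together (correlations -0.06, -0.06 and 0.01), and with a replicate block 6149 genes passed, with 3 members higher and 1 lower. Few reads limit *Adarb2* and *Adarb1*.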

Other observations

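*D730005E14Rik* (GSMG0014261, chr15:79889532-79893141, minus strand), singled out after its values were seen, lies head to head with *Apobec3* and overlaps its start on the opposite strand. It had values of 2.22, 0 and 7.60 in controls and 72.0, 106 and 82.1 in libraries labelled mutant, without overlap (log2 fold change 4.84, standard error 0.83, adjusted p = 0.00269 in limma). The fold change depended on the pseudocount, at 6.14 with 0.1 and 2.89 with 10, and was 4.04 without control replicate 2 and 5.59 without control replicate 3. The gene passed the threshold under all 13 other settings and with each library left out. Reads of the 2 genes in the overlap cannot be assigned if the counting ignored strand.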
